A study of Danio rerio with 8 samples.

Results

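The retinoid synthesis and breakdown genes are 10 genes whose products make or remove retinoic acid and its precursors: bco1, rdh5, rdh10a, rdh10b, dhrs3a, aldh1a2, aldh1a3, cyp26a1, cyp26b1 and cyp26c1. They were picked by name, around the low rdh5 level in E64d embryos, and all 10 are among the 36109 genes of the deposited count table. Because that level chose them, the values of the 10 genes in E64d against DMSO are given as a description, without p-values. The study asked what blocking cysteine proteases does to gene expression in the zebrafish embryo, and its title concerns the mobilization of yolk lipid.

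The E64d group was wild-type AB embryos (Danio rerio) treated with E64d, which enters cells and inhibits cysteine proteases, at 3 µM between the ages of 1 and 24 hours post-fertilization (hpf). The DMSO group was wild-type AB embryos held over the same time in the solvent dimethyl sulfoxide, stated as 0.5% for both groups. The stated dilution of a 10 mM stock to 3 µM would by itself carry 0.03% DMSO, so a difference in solvent and the effect of E64d cannot be told apart from the labels. In both groups the chorion was cut and the medium was one labelled AFW-PTU. Each group had 4 libraries, each from the total RNA of 7 pooled whole embryos, so errors measure the spread between pools.

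Zebrafish embryos obtain retinoids from the yolk, as retinal, retinol or carotenoids. Beta-carotene is cleaved to retinal, retinol dehydrogenases turn retinol into retinal, reductases turn it back, and retinaldehyde dehydrogenases oxidize retinal irreversibly to retinoic acid. Retinoic acid binds nuclear receptors that pattern the hindbrain, somites, heart and eye, and enzymes of the cyp26 family clear it, which shapes its gradients.

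The 8 libraries held 29422983 to 37309883 counts. Even numbers made up 75.9% to 80.7% of the counts from 1 to 20 in each. Whether both mates of a fragment were counted is not given in the sources used here, and dividing counts by 2 was one of the alternatives. DMSO replicate 2 had the lowest share of counts in 13 mitochondrial genes (0.908%, against 1.38% to 2.17% in the other libraries). Calls that change without it, and estimates of the 10 genes that turn without it, are given with the gene. Levels are given in CPM: each count was divided by its library's TMM-adjusted size and put on one scale. CPM is not corrected for gene length, so levels of different genes are not compared. Somite, retina, pigment cell, hindbrain and tail bud markers were detected in both groups, except wnt8a, a tail bud marker at 0 in all libraries.

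In E64d embryos rdh5 stood far below its DMSO level, and the other 9 genes overlapped between the groups. Those 9 include both retinaldehyde dehydrogenases, all 3 cyp26 genes and both rdh10 genes. Of all tested genes 14.4% did not overlap, and rdh5 chose the list, so nothing is read from this count. Outside the 10, of 16 tested genes that carry or take up retinoids, 7 fell and 1 rose. Of all tested genes 3.85% fell and 2.28% rose. The lists of genes outside the 10 were made with earlier results of these data known, so their counts are a description. None of 10 retinoid receptor genes and none of 22 genes known to respond to retinoic acid passed the test. Of all tested genes 6.13% passed. With the replicate number as a block, 3 of the 22 rose, where 1040 of the 22163 tested genes rose.

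**Figure D1:**
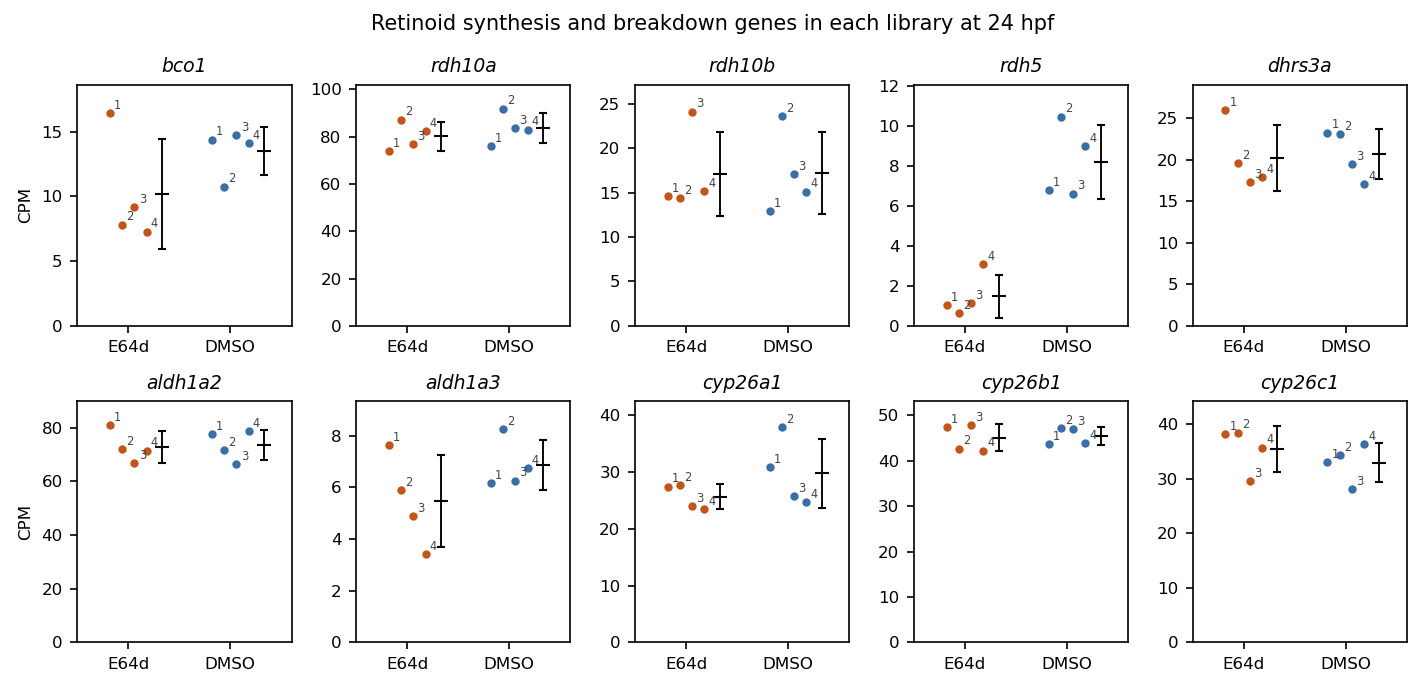
CPM of the 10 retinoid synthesis and breakdown genes in each library (points, numbered by replicate; E64d left, DMSO right), with group mean and SD (bars, n = 4). For rdh5 all 4 E64d points lie below all 4 DMSO points, and the groups of the other 9 genes overlap. Of all tested genes 14.4% did not overlap.

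The carotenoid enzyme bco1, which cleaves beta-carotene to retinal, had 16.4, 7.82, 9.14 and 7.29 CPM in E64d libraries 1 to 4, against 14.4, 10.8, 14.7 and 14.1 CPM in DMSO libraries 1 to 4. E64d library 1 was the highest of all 8, and the other 3 E64d libraries were below every DMSO library. The means were 10.2 ± 4.24 CPM in E64d and 13.5 ± 1.85 CPM in DMSO (SD, n = 4 each). The log2 fold change, E64d over DMSO, was −0.41 ± 0.23 (SE), with a 95% interval of −0.90 to 0.08 that is not adjusted for the number of genes. Without E64d replicate 1 it was −0.74, and bco1 then passed the edgeR threshold used for all genes, as did 834 genes in total. With any other library left out it lay between −0.50 and −0.28. Under no other alternative did bco1 pass.

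Among the retinol dehydrogenases, rdh10a, which opens the route to retinoic acid by oxidizing retinol, had 73.8, 87.3, 77.0 and 82.3 CPM in E64d and 76.1, 91.9, 83.6 and 83.0 CPM in DMSO. The groups overlapped between 76.1 and 87.3 CPM, each E64d library was below the DMSO library of its number, and the spread between pools was small (coefficient of variation 7.4% in E64d and 7.73% in DMSO). Its fold change was −0.06 ± 0.08 on the log2 scale (95% interval −0.24 to 0.11). Under library totals alone it was 0.025, so the sign depended on the scaling. The TMM factors were 1.025 to 1.036 in E64d and 0.928 to 0.993 in DMSO.

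Its copy rdh10b varied much more between pools. It had 14.6, 14.4, 24.1 and 15.2 CPM in E64d and 12.9, 23.6, 17.1 and 15.1 CPM in DMSO. A single library in each group was high, E64d replicate 3 and DMSO replicate 2, and the other values of both groups lay between 12.9 and 17.1 CPM. The coefficient of variation was 27.5% in E64d and 26.7% in DMSO, and the log2 fold change of −0.0073 ± 0.20 had an interval of −0.45 to 0.43. It was 0.19 without DMSO replicate 2 and −0.22 without E64d replicate 3. A difference of up to about 1.35-fold higher or 0.734-fold in E64d lies within that interval.

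The gene rdh5 encodes a retinol dehydrogenase best known from mammals, where it oxidizes 11-cis-retinol in the retinal pigment epithelium. RefSeq (assembly GRCz12tu) lists hsd17b9 among its zebrafish synonyms. It had 1.04, 0.644, 1.14 and 3.08 CPM in E64d libraries 1 to 4, against 6.80, 10.5, 6.63 and 9.01 CPM in DMSO libraries 1 to 4. The groups did not overlap, and E64d replicate 4 stood well above the other E64d libraries. These levels rest on 32, 22, 44 and 94 counts in E64d and 215, 360, 216 and 296 counts in DMSO. The means were 1.48 ± 1.09 CPM in E64d and 8.23 ± 1.86 CPM in DMSO, a mean 5.58 times higher in DMSO. The log2 fold change was −2.49 ± 0.39 (95% interval −3.33 to −1.65), and −3.12 without E64d replicate 4.

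Between libraries of the same replicate number, the log2 ratio of rdh5 lay between −4.03 (number 2) and −1.55 (number 4), so the size of the difference varied from pair to pair. The pairs of number 1 and number 3 were close to each other, at −2.71 and −2.54. Markers of the retinal pigment epithelium and pigment cells, the tissue in which mammalian rdh5 is best known, overlapped between the groups. Their 7 genes (dct, pmela, tyrp1b, mitfa, oca2, tyr and slc45a2) summed to 191 to 244 CPM in E64d and 170 to 246 CPM in DMSO, and none passed the test. Which cells of the zebrafish embryo held rdh5 RNA was not measured, so these markers may not stand for its source. In whole embryos, fewer cells of a type and less RNA per cell cannot be told apart.

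The reductase gene dhrs3a, whose product turns retinal back into retinol, had 25.9, 19.6, 17.4 and 17.9 CPM in E64d and 23.3, 23.1, 19.5 and 17.1 CPM in DMSO. Libraries of number 1 were the highest of their group, and the groups overlapped. On the log2 scale the difference was −0.04 ± 0.14 (95% interval −0.35 to 0.27), and −0.18 to 0.028 with 1 library left out (0.021 without DMSO replicate 2). In the RefSeq annotation dhrs3a overlaps 1 other gene, LOC141380488.

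Among the retinaldehyde dehydrogenases, aldh1a2, the main source of retinoic acid in the trunk mesoderm, had 81.0, 72.0, 66.8 and 71.4 CPM in E64d and 77.6, 71.5, 66.5 and 78.7 CPM in DMSO. Same-numbered libraries 1 to 3 were close to each other (log2 ratios 0.063, 0.0089 and 0.0064). Over all pools the log2 fold change was −0.015 ± 0.08, and the interval of the fold ran from 0.874 to 1.12. Somite and paraxial mesoderm markers, 6 genes, summed to 71.9 to 93.9 CPM in E64d and 59.9 to 83.2 CPM in DMSO. None passed the test, and with the replicate number as a block 1 rose, tbx6 (log2 fold change 0.50, edgeR adjusted p = 0.0454).

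The eye enzyme gene aldh1a3 had 7.64, 5.89, 4.88 and 3.41 CPM in E64d and 6.17, 8.25, 6.26 and 6.73 CPM in DMSO. Of the E64d libraries, 3 were below every DMSO library and 1 lay among them. The means were 5.46 ± 1.78 CPM in E64d and 6.85 ± 0.963 CPM in DMSO, and the log2 fold change was −0.33 ± 0.22 (95% interval −0.81 to 0.15). Without E64d replicate 1 it was −0.53, and −0.16 without E64d replicate 4. The 6 retina markers summed to 195 to 217 CPM in E64d and 189 to 217 CPM in DMSO. In the RefSeq annotation (GRCz12tu) the span of aldh1a3 overlaps lrrk1 and 1 further gene. The counts were made on GRCz11, with no annotation or strand setting given in the sources used. Whether reads were shared between overlapping genes, here and for dhrs3a and cyp26c1, cannot be told.

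All 3 cyp26 genes encode P450 enzymes that break down retinoic acid. The gene cyp26a1, which retinoic acid itself is known to induce, had 27.5, 27.7, 24.1 and 23.5 CPM in E64d and 30.8, 37.9, 25.8 and 24.7 CPM in DMSO. DMSO replicate 2 was the highest, and each E64d library was below the DMSO library of its number. Its log2 fold change was −0.22 ± 0.13 (95% interval −0.50 to 0.07), and −0.07 without DMSO replicate 2.

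Levels of cyp26b1, expressed in the hindbrain among other sites, were the most even of the 10 genes over the pools. They were 47.3, 42.7, 47.9 and 42.3 CPM in E64d and 43.6, 47.2, 47.0 and 43.9 CPM in DMSO, with coefficients of variation of 6.63% in E64d and 4.32% in DMSO. The log2 fold change was −0.012 ± 0.08 (95% interval −0.18 to 0.16), and 0.011 without DMSO replicate 2. The gene cyp26c1 had 38.2, 38.5, 29.5 and 35.7 CPM in E64d and 33.1, 34.3, 28.0 and 36.4 CPM in DMSO. Libraries of number 3 were the lowest in both groups, and the log2 fold change was 0.11 ± 0.11 (95% interval −0.13 to 0.34). In the RefSeq annotation cyp26c1 overlaps 1 other gene, LOC141378551. Hindbrain markers, 5 genes, summed to 174 to 197 CPM in E64d and 156 to 184 CPM in DMSO, and tail bud markers, 4 detected genes, to 50.7 to 61.1 CPM in E64d and 47.7 to 57.4 CPM in DMSO. None of these markers passed the test.

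All 10 genes passed the filter on low counts. By edgeR's quasi-likelihood test over 22163 genes, with Benjamini-Hochberg adjustment and a threshold of 0.05, 1 of the 10 passed, rdh5, where 6.13% of all tested genes passed. The 4 E64d values lay wholly below the 4 DMSO values in 1 of the 10, where 8.55% of all tested genes did so, and they lay wholly above in none, where 5.86% did so. As rdh5 chose the list, nothing is read from these counts. The median log2 fold change of the 10 was −0.05, and that of all tested genes was 0.01. Of the 10 estimates 9 were below 0, but under scaling by library totals alone 4 were, those of bco1, rdh5, aldh1a3 and cyp26a1. That scaling put the median of the 10 at 0.037 and that of all tested genes at 0.096.

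**Figure D2:**
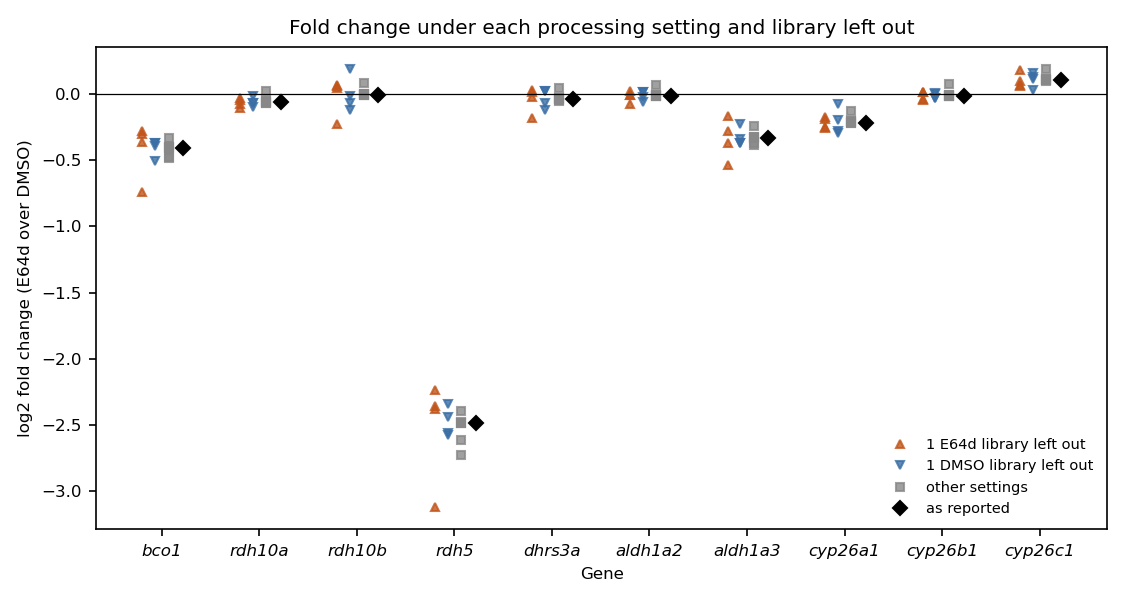
log2 fold change (E64d over DMSO, vertical axis) of each of the 10 genes as reported (diamonds), with 1 E64d or 1 DMSO library left out (triangles) and under the other settings (squares). The values of rdh5 lie between −3.12 and −2.24, and those of the other 9 genes between −0.74 and 0.19.

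The other genes of the pathway were taken from lists chosen by known role, and were tested in the same fit. These lists were made with earlier results of these data known. Among other retinoid enzymes (retinol dehydrogenases, carotenoid oxygenases, retinol esterifying enzymes and isomerases), 27 were in the table, 23 were tested, 1 rose and none fell, where 2.28% of all tested genes were called higher and 3.85% lower. A count of 1 in 23 is near that background. The gene was bco2a, a carotenoid oxygenase that cleaves its substrates off centre. It had 0.712, 1.64, 1.25 and 2.17 CPM in E64d, against 0.0633, 0.175, 0.246 and 0.183 CPM in DMSO. All E64d libraries were above all DMSO libraries, but the DMSO values rest on only 2 to 8 counts a library. The log2 fold change was 3.08 ± 0.52 (adjusted p = 0.00347 by edgeR; 0.00118 to 0.0201 over its alternatives), higher in 4 of 4 same-numbered pairs, and DESeq2 gave no adjusted p for it.

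The other 22 tested enzymes did not pass, and the median of the 23 was −0.15. At an unadjusted p under 0.05 by edgeR 3 of the 23 were higher (bco2a, rdh14a and lrata) and 3 lower (aldh8a1, adh5 and adh8b). Over all tested genes 8.58% were higher and 11.4% lower at that p. Of these 6, rdh14a, lrata and aldh8a1 were named after their values were seen. The alcohol dehydrogenase gene adh8b had 142, 75.5, 80.6 and 96.0 CPM in E64d and 157, 139, 116 and 125 CPM in DMSO. E64d replicate 1 lay among the DMSO libraries, and the other 3 were below them. Its log2 fold change was −0.45 ± 0.17 (edgeR adjusted p = 0.151), but adh8b was called once the replicate number was a block (adjusted p = 0.00612) or E64d replicate 1 was left out (adjusted p = 0.0065). The gene adh5 had a log2 fold change of −0.23 ± 0.10 (edgeR adjusted p = 0.217). For rpe65b, a relative of the retinoid isomerase gene rpe65, it was −0.12 ± 0.16 (edgeR adjusted p = 0.758), or −0.25 without DMSO replicate 2.

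**Figure D3:**
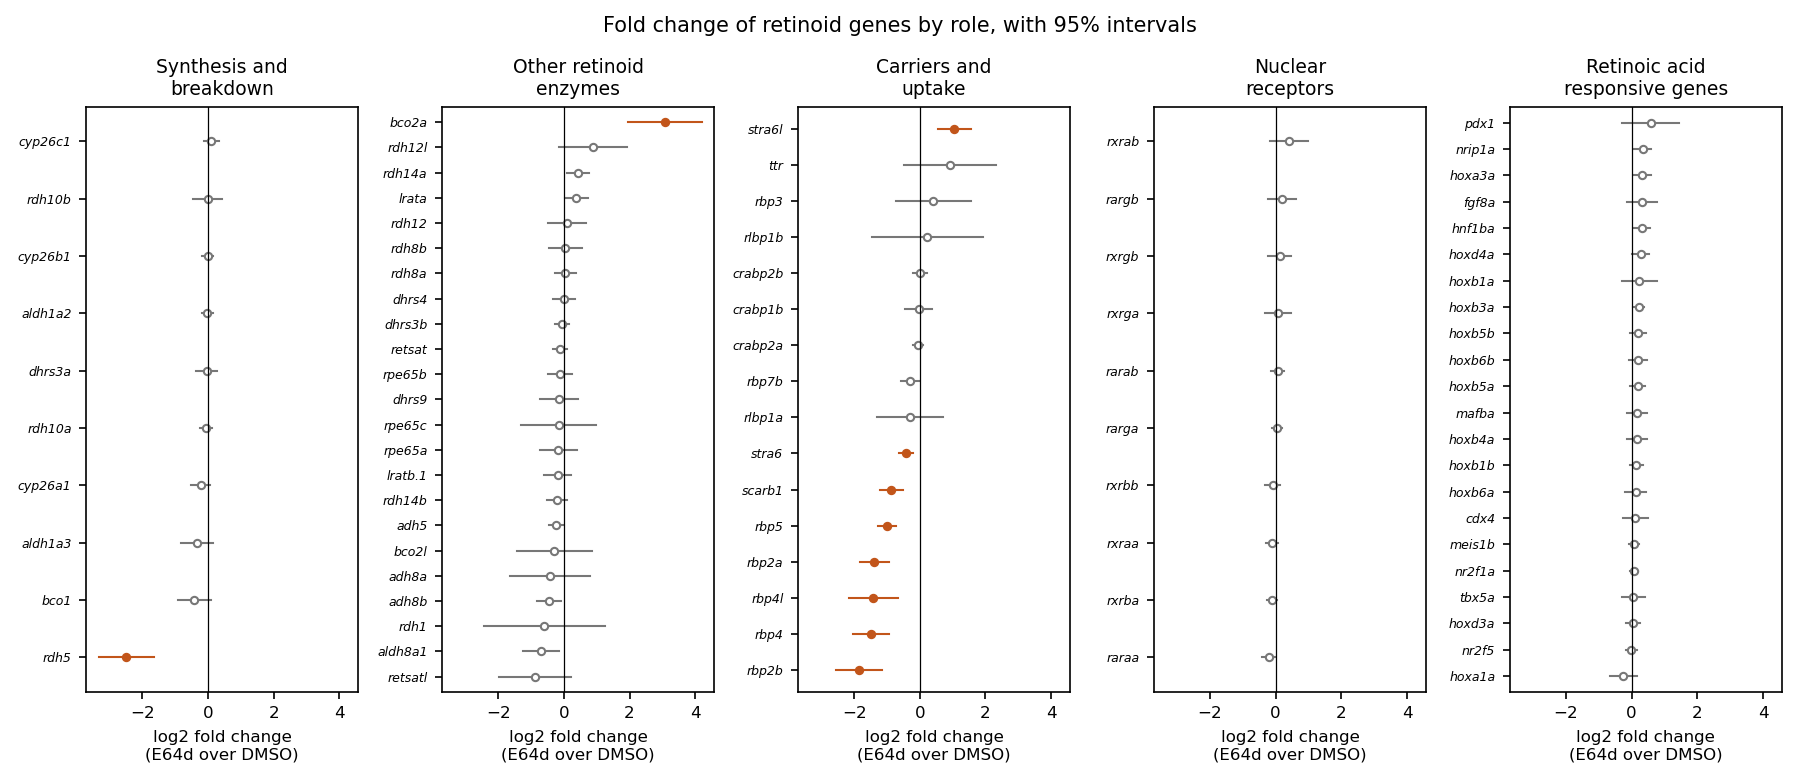
log2 fold change (E64d over DMSO, horizontal axis) with unadjusted 95% intervals for each tested gene, in 5 panels by role. Filled orange points passed edgeR's test. They are rdh5, which chose its list, bco2a and 8 of 16 carrier and uptake genes. None of the nuclear receptors or retinoic acid responsive genes passed. Of all tested genes 6.13% did.

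Of 19 retinoid carrier and uptake genes in the table, 16 were tested, of which 7 fell and 1 rose, against the same background shares. The count is a description, as the list was made with earlier results of these data known. Their median log2 fold change was −0.30. In all 7 the E64d values lay wholly below the DMSO values, as in 8.55% of all tested genes. The 7 were called from the same values, so this is a description.

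The secreted carrier gene rbp4, whose protein takes retinol through the plasma, had 15.8, 16.8, 35.3 and 30.3 CPM in E64d, against 73.0, 46.5, 68.9 and 87.2 CPM in DMSO. It fell in E64d by 1.49 ± 0.25 (SE) on the log2 scale (edgeR adjusted p = 0.0036). Its relative rbp4l had 0.453, 1.17, 0.727 and 0.886 CPM in E64d and 1.80, 2.54, 1.81 and 2.50 CPM in DMSO (log2 fold change −1.41 ± 0.34, edgeR adjusted p = 0.0289). Leaving out DMSO replicate 2, DMSO replicate 4 or any E64d library other than replicate 2 ended that call (adjusted p at most 0.0773).

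Inside cells, retinol is held by cellular retinol-binding proteins. Their gene rbp2a had 5.96, 7.29, 6.81 and 5.15 CPM in E64d, against 10.3, 21.0, 19.2 and 15.6 CPM in DMSO (log2 fold change −1.39 ± 0.20, edgeR adjusted p = 0.00117). The copy rbp2b had 0.842, 0.820, 2.34 and 1.38 CPM in E64d, against 5.95, 4.26, 4.42 and 5.12 CPM in DMSO (−1.86 ± 0.32, edgeR adjusted p = 0.00426). The gene rbp5 averaged 41.5 ± 5.36 CPM in E64d and 83.2 ± 13.2 CPM in DMSO (fold 0.499, 95% interval 0.415 to 0.6, edgeR adjusted p = 0.000293). The gene rbp7b averaged 10.6 ± 1.51 CPM in E64d and 13.0 ± 0.985 CPM in DMSO and did not pass (edgeR adjusted p = 0.233).

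Of the membrane receptors, stra6, the receptor for rbp4 protein, averaged 23.8 ± 2.95 CPM in E64d and 31.8 ± 1.94 CPM in DMSO (log2 fold change −0.42 ± 0.10, edgeR adjusted p = 0.0303). Scaling by library totals alone ended this call (adjusted p = 0.0835), as did leaving out DMSO replicate 1, DMSO replicate 3 or any E64d library other than replicate 1 (adjusted p at most 0.0992). The related receptor gene stra6l was the one that rose, with 6.67, 5.97, 6.18 and 6.50 CPM in E64d against 3.86, 2.62, 3.93 and 1.86 CPM in DMSO. Its log2 fold change was 1.05 ± 0.23 (edgeR adjusted p = 0.0188), and the call was lost without E64d replicates 1 or 4 (adjusted p = 0.0506 and 0.0648). The scavenger receptor gene scarb1, which takes up carotenoids and lipoprotein lipid, averaged 15.4 ± 1.96 CPM in E64d and 28.1 ± 7.14 CPM in DMSO (−0.86 ± 0.16, edgeR adjusted p = 0.0079).

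**Figure D4:**
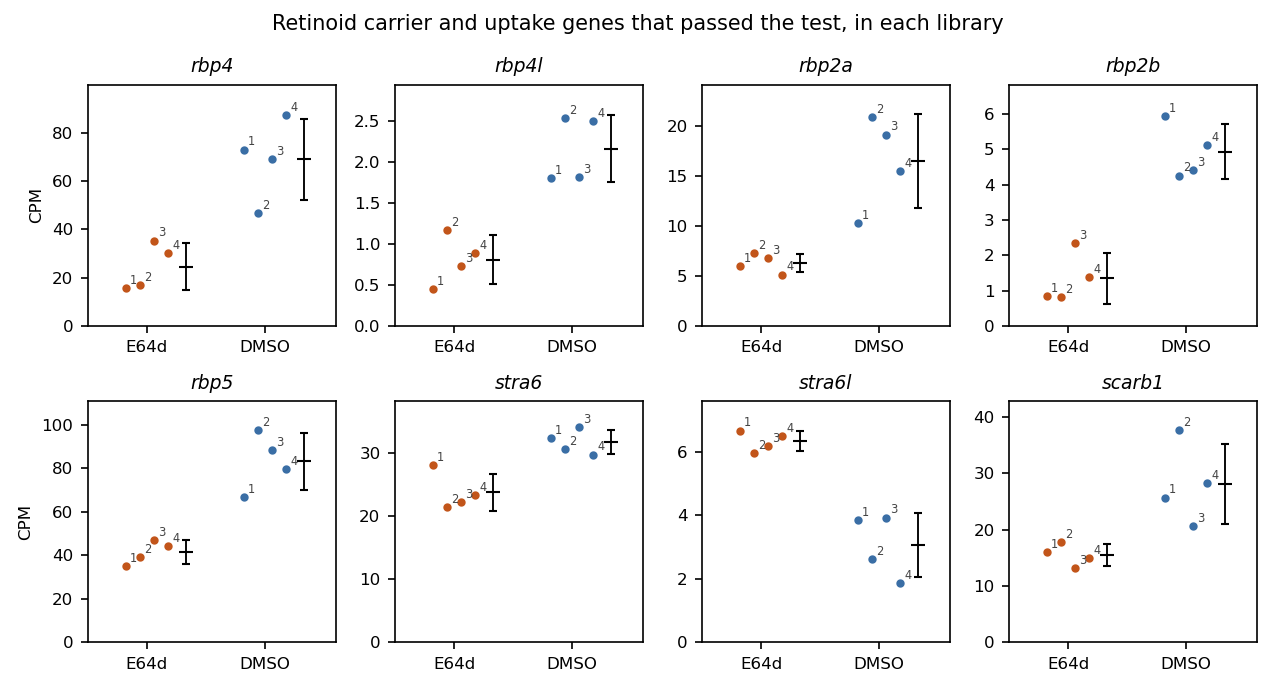
CPM of the 8 retinoid carrier and uptake genes that passed edgeR's test, in each library (points, numbered by replicate; E64d left, DMSO right), with group mean and SD (bars, n = 4). The groups do not overlap in any of the 8, and stra6l is the one with higher E64d values. The 8 were called from these same values, and 14.4% of all tested genes did not overlap.

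Among the carriers of retinoic acid itself, crabp2a and crabp2b averaged 75.2 ± 5.12 and 38.6 ± 3.75 CPM in E64d. They averaged 77.9 ± 3.68 and 38.3 ± 2.89 CPM in DMSO, and neither passed (edgeR adjusted p = 0.77 and 0.97). The intervals of their folds were 0.864 to 1.08 and 0.876 to 1.16. The less abundant crabp1b did not pass either (log2 fold change −0.027, edgeR adjusted p = 0.96), and crabp1a was under the filter on low counts. Some of 7 listed markers of the yolk syncytial layer and liver were chosen because they were known to fall in these data. Nothing is therefore read from their count. Of the 7, 4 were lower (apoa2, mttp, tfa and serpina1l), where 3.85% of all tested genes were. Another 3 did not pass (apobb.1, apoa1a and ttr), and none of the 7 was at 0. With the replicate block apobb.1 was lower too (log2 fold change −0.30, edgeR adjusted p = 0.00377). The call of apoa2 was lost when libraries were scaled by totals alone (edgeR adjusted p = 0.112) and when any of E64d replicates 1, 2 and 4 or either of DMSO replicates 3 and 4 was left out (0.0576 to 0.127). The 7 summed to 10388 to 12874 CPM in E64d and 13852 to 15708 CPM in DMSO. Most of this was apobb.1 and apoa1a, which averaged 7114 and 2707 CPM in E64d and 8740 and 2855 CPM in DMSO. The sum therefore says little about the 4 lower genes. The part of the 7 in the carriers' result was not tested. The gene ttr is in both lists.

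Of 10 receptor genes for retinoic acid and 9-cis-retinoic acid, none passed by edgeR, DESeq2 or limma-voom. By edgeR 6.13% of all tested genes passed. By edgeR 1 receptor gene had an unadjusted p under 0.05, where 8.58% of all tested genes were higher and 11.4% lower at that p. That gene, raraa, named after its values were seen, had a log2 fold change of −0.21 and passed without DMSO replicate 2 (−0.29, adjusted p = 0.0446). The median log2 fold change of the 10 receptors was 0.052, and −0.032 without DMSO replicate 2. The most abundant receptors by counts, rxrba, rarga and rarab, averaged 159 ± 3.13, 102 ± 4.16 and 85.6 ± 5.71 CPM in E64d and 171 ± 12.4, 98.7 ± 4.44 and 82.1 ± 9.27 CPM in DMSO. Their edgeR adjusted p-values were 0.417, 0.78 and 0.785, and no interval went beyond a fold of 0.836 or 1.19.

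The 22 genes known to respond to retinoic acid, among them 12 hox genes, were all tested. None passed by edgeR, DESeq2 or limma-voom, where 6.13% of all tested genes passed by edgeR. At an unadjusted p under 0.05 by edgeR 5 were higher in E64d (hoxa3a, hoxb3a, hoxd4a, hnf1ba and nrip1a, named after their values were seen) and none lower, where 8.58% of all tested genes were higher and 11.4% lower at that p. With the replicate block 3 rose: hoxa3a (log2 fold change 0.34, adjusted p = 0.0282), hoxb3a (0.21, adjusted p = 0.0498) and nrip1a (0.35, adjusted p = 0.049). With that block 11.6% of all tested genes were called, 1040 of the 22163 higher in E64d and 1540 lower. The list had a median log2 fold change of 0.18, against 0.01 for all tested genes. Of the 22 estimates 20 were above 0, as were 11462 of the 22163 over all genes. No expected direction was set for these genes, so the signs are a description. The most abundant members, nr2f5, meis1b and nr2f1a, averaged 315 ± 13.8, 208 ± 11.1 and 149 ± 2.25 CPM in E64d and 316 ± 26.5, 196 ± 11.6 and 142 ± 3.16 CPM in DMSO (edgeR adjusted p = 0.986, 0.579 and 0.534). Hindbrain and tail bud markers share hoxb1a, mafba, cdx4 and fgf8a with this list.

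The genes nearest to rdh5 in their profile were sought among 19207 genes with at least 1 CPM in the higher group. Likeness was the root mean square difference, over the 8 libraries, of log2(CPM + 1) centred on each gene's mean. The nearest 5 were si:ch211-152c8.5, fbp1b, which encodes a gluconeogenic fructose bisphosphatase, si:dkey-187a12.4, soat2, a sterol esterifying enzyme, and slc47a1, an extrusion transporter. Their differences from rdh5 were 0.335 to 0.357. The gene fbp1b averaged 32.8 ± 7.62 CPM in E64d and 141 ± 16.4 CPM in DMSO, and slc47a1 11.0 ± 2.23 CPM in E64d and 46.3 ± 5.59 CPM in DMSO. Being nearest to a gene picked for its low E64d level, these genes are a description as well.

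**Figure D5:**
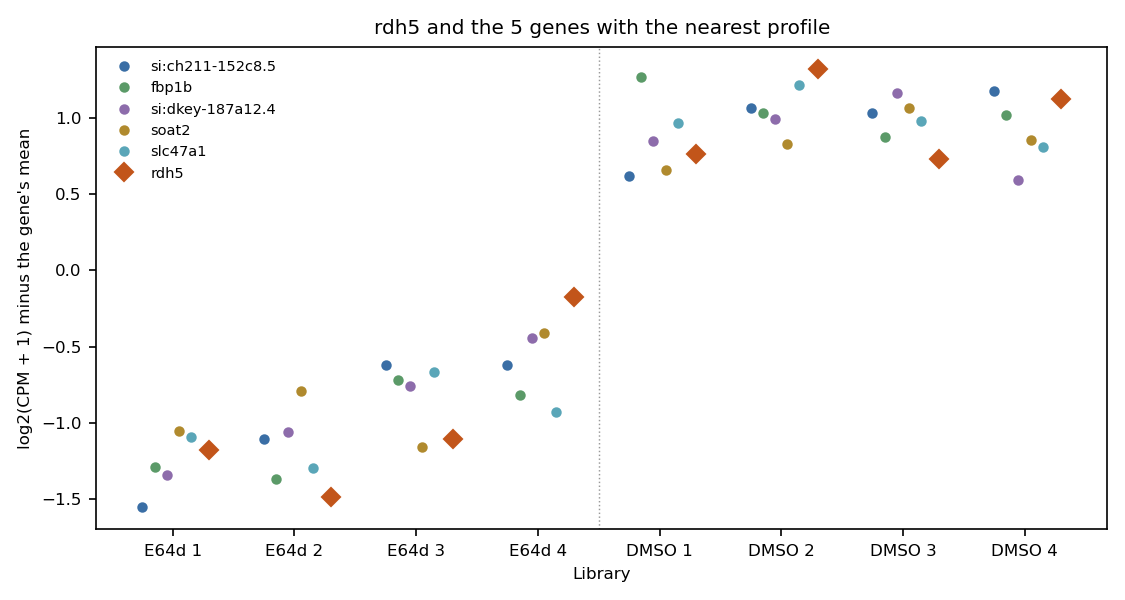
log2(CPM + 1) minus the gene's mean (vertical axis) in each of the 8 libraries for rdh5 (diamonds) and the 5 genes nearest to it (circles). All 6 genes are lower in every E64d library than in every DMSO library, and rdh5 is the highest of the 6 in E64d replicate 4.

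The profile of cyp26a1 was nearest to tssc4, CABZ01086734.1 and RAMP3 (differences 0.0521 to 0.0564), and that of aldh1a2 to fsd1 and jdp2a (0.0258 and 0.0372). None of these 5 genes passed the test.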

How the data were processed

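Total RNA of whole embryos was sequenced, 4 libraries per group. The deposited table holds the authors' raw counts of reads for each gene and library, and its columns were matched to samples by the names in the labels. Another 6 columns bear no sample name and were left out. The submitters' processing notes list FastQC (0.12.1), Trim Galore (0.6.10), STAR (2.7.10b), featureCounts (2.0.6) and the build GRCz11. Neither the annotation nor strand and multi-mapping settings were given in the sources used, so reads of close copies (rdh10a and rdh10b, rbp2a and rbp2b) may have been split or dropped. PCR duplicates were not marked.

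The main test was the quasi-likelihood test of edgeR 4.0.16 (in R 4.3.3) with filterByExpr defaults and TMM scaling, over 22163 genes, with Benjamini-Hochberg adjustment. Standard errors and 95% intervals of log2 fold changes derive from the test statistic. The test was checked on simulated data. Alternatives were library totals alone, RLE factors, DESeq2 1.42.0, limma-voom (limma 3.58.1), no filter, counts divided by 2, the replicate number as a block, and each library left out in turn.

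Deviations from the group means were used to check whether replicate numbers pair the libraries. Across genes they correlated at 0.113 to 0.379 between libraries of 1 number and at −0.21 to 0.0555 between others. Same-numbered libraries are therefore set side by side as pairs. The main test did not use the pairing, and the alternative with the replicate number as a block did. This pairing is inferred from the values, as no label explains the numbers. Deviations from a mean of 4 libraries sum to 0, so higher correlations within a number by themselves lower those between numbers. The pairing was weakest for number 4, at 0.113, against 0.0555 between E64d replicate 4 and DMSO replicate 3.

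The 10 genes and the lists were chosen with earlier results of these data known. Of the 33 entries for other enzymes 26 matched by name and 1 by a RefSeq synonym (GRCz12tu, names only), 1 was a second name and 5 had no match. Of 21 carrier entries 19 matched by name, 1 was a second name and 1 had no match. The other lists matched in full. Named genes were the 10, every called gene and the 3 most abundant others of each of the 4 lists, and the genes of nearest profile (5 for rdh5, 3 each for cyp26a1 and aldh1a2, of which 1 is not reported here).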

Additional observations from a re-analysis of the deposited data

Results flagged for a closer look

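In 82 groups of 4 libraries (41 named genes), the outermost library lay farther from the next, relative to the group's range, than Dixon's 95% critical value in 2. Chance flags about 1 in 20 groups. For rdh10b, E64d replicate 3 stood at 24.1 CPM, against 14.4 to 15.2 CPM in the other E64d libraries. For bco1, DMSO replicate 2 stood at 10.8 CPM, against 14.1 to 14.7 CPM in the other DMSO libraries.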

How the results depend on the processing

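The number of genes called was 1359 (37.2% of them higher in E64d), 2580 with the replicate block, 2156 with DESeq2 and 655 to 1396 with 1 library left out (835 without DMSO replicate 3, and 834, 845, 854 and 655 without E64d replicates 1 to 4). Under library totals alone it was 1301, with 61.7% higher. Of the 10 retinoid genes 1 to 2 were called over the libraries left out, the second being bco1. Of the other enzymes 2 were called with the block, 0 with DESeq2, and 1 to 2 with 1 library left out. The carriers gave 5 to 7 calls with 1 library left out, the fewest without E64d replicate 4, and the receptors 0 to 1. With the block 3 retinoic acid responsive genes were called. Beside these and adh8b, the block added calls of tbx6 and apobb.1 among the markers, and changed no other call of a listed gene.

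Of the 10 retinoid genes, 5 changed sign under some alternative. With 1 library left out the log2 fold changes ran from −0.22 to 0.19 for rdh10b, −0.18 to 0.028 for dhrs3a, −0.071 to 0.024 for aldh1a2 and −0.043 to 0.017 for cyp26b1. Under library totals alone they were 0.087, 0.048, 0.069 and 0.075 in that order, and 0.025 for rdh10a. That of rdh10b was 0.0011 without a filter and 0.0034 with limma-voom.

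Other genes near 0 that were not called changed sign. Under library totals alone the log2 fold changes were 0.033 for crabp2a, 0.082 for nr2f5, 0.058 for fsd1 and 0.042 for jdp2a. That of nr2f5 was 0.0040 without a filter and 0.0033 with counts divided by 2. With 1 library left out the values ran from −0.25 to 0.0069 for rpe65b, −0.045 to 0.069 for crabp2b, −0.0064 to 0.12 for rarab, −0.040 to 0.036 for nr2f5, −0.081 to 0.025 for fsd1 and −0.084 to 0.0078 for jdp2a. The cause was not tested. Counts were low for rdh5 (22 to 94 in E64d), rbp4l (14 to 40 in E64d) and bco2a (2 to 8 in DMSO).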
